A study of Mus musculus with 6 samples.

Results

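The genes described here are 49 that encode translation initiation, elongation and termination factors, the soluble proteins that start, extend and end synthesis on the ribosome. They were chosen by name from a written list and sorted by the complex or step in which their proteins act: scanning and subunit joining, eIF2, eIF2B, eIF3, eIF4F with poly(A) binding, elongation, and release with recycling. All 49 had estimated counts and passed the filter on low counts, of 13231 genes tested and 51912 genes matched to names. The lowest count of a listed gene in a library was 59.4, for Eif4g3.

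Initiation begins when eIF2 carries the initiator tRNA to the small ribosomal subunit, where eIF3, eIF1 and eIF1A hold the scanning complex open. eIF4F binds the cap and unwinds the leader, and poly(A) binding proteins join the end of the message to it. eIF5 and eIF5B lead to subunit joining, eIF2B reloads eIF2 with GTP, the eEF1 and eEF2 factors move the ribosome along the message, and eRF1, eRF3 and ABCE1 end synthesis and split the ribosome. Messages of several of these factors begin with a run of pyrimidines, the terminal oligopyrimidine (TOP) tract, through which growth signals control their translation.

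RAPIDASH is a way to purify ribosome complexes in which lysate is spun through a sucrose cushion and the pellet is passed over a resin charged with cysteine. Poly(A) RNA was sequenced from 3 resin eluates and from 3 cushion pellets that had not met the resin. Every sample came from E14, 1 line of mouse embryonic stem cells, and every culture received 100 µg/mL cycloheximide for 3 min, so ribosomes were held on their messages in both groups. The question of the comparison is whether the resin changes the makeup of the messages beyond what the cushion gives. Samples carry the numbers 1 to 3 in each group, without a statement in the labels that each came from its own culture or that a number ties an eluate to a pellet. The p-values therefore cover the spread among these samples, which may be technical. A difference between eluates and pellets is a difference in share of the sequenced poly(A) RNA. Retention by the resin and loss on the way cannot be told apart, nor can fewer cells and less RNA per cell.

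Library totals were 1.16e+07, 1.13e+07 and 1.002e+07 estimated counts in the eluates and 8.44e+06, 1.04e+07 and 7.84e+06 in the pellets. On the first principal component the eluates were at 30.5 to 41.8, pellets 2 and 3 at -42.9 and -45.3, and pellet 1 stood nearer to the eluates at -19.1. All 10 embryonic stem cell markers were detected (5 higher, 2 lower and 3 not called), with a summed level of 14743 to 14838 TPM in the eluates and 11260 to 12617 TPM in the pellets. Most of that sum was Dppa5a (10287.5 TPM in the eluates and 7529 TPM in the pellets) and Pou5f1 (2524 and 2107 TPM). The 2 lower markers were Sox2 and Zfp42. Of 5 fibroblast markers, Col1a1, Col1a2, Lum and Dcn were at or near 0 TPM. Thy1 was at 10.47 TPM in the eluates and 7.16 TPM in the pellets and was called as higher. Of 5 markers of early differentiation the summed level was 4.71 to 5.73 TPM in the eluates and 4.43 to 6.66 TPM in the pellets. The part of these markers in the results was not tested.

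The translation factor messages did not move as a block. At an adjusted p under 0.05 (edgeR quasi-likelihood test over all genes), 18 of the 49 were higher in the eluates, 22 were lower and 9 were not called. Among all 13231 genes, 24.5% were higher and 28.2% were lower (52.7% in either direction). Of the listed genes 36.7% were higher and 44.9% were lower. The listed genes are abundant, with a median of 302 CPM (read counts relative to library size, scaled by TMM factors) against 21.6 CPM for all genes tested. Among the 479 genes at or above that median level, 54.5% were higher and 20.9% were lower. The median log2 fold change of the list, eluate over pellet, was -0.03, against 0.00 for all genes tested. As a sum the list held its share, with 3.89% ± 0.04 of matched counts in the eluates and 3.93% ± 0.07 in the pellets (SD, n = 3 each). Without pellet 1 the fit called 19 of the list higher and 23 lower, and without both libraries of number 3 it called 13 higher and 18 lower. On log2(TPM) values 11 were higher and 23 lower, with either pseudocount (0.1 or 1).

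Across all genes tested, the 10th and 90th percentiles of the log2 fold change were -0.96 and 0.58. In the list the lowest log2 fold change was -1.71 (Eif3a) and the highest 0.74 (Eif3f). Called and lower by at least 1 on the log2 scale were 5 listed genes, Eif3a, Eif5b, Abce1, Eif3e and Eif4g3, where 8.64% of all genes passed the same limits. In the authors' deposited table of the comparison Eif4g3 is at -0.68, short of this limit, and the other genes named are at -1.66 to -1.10. No listed gene was called and higher by at least 1, a rule that 0.831% of all genes met. At a size of 0.5, 14 listed genes were lower (20.2% of all genes) and 8 were higher (11.7% of all genes). CPM values of the groups did not overlap for 42 listed genes, with eluates above in 18 and below in 24, where eluates lay above in 29.1% and below in 31.2% of all genes.

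**Figure D1:**
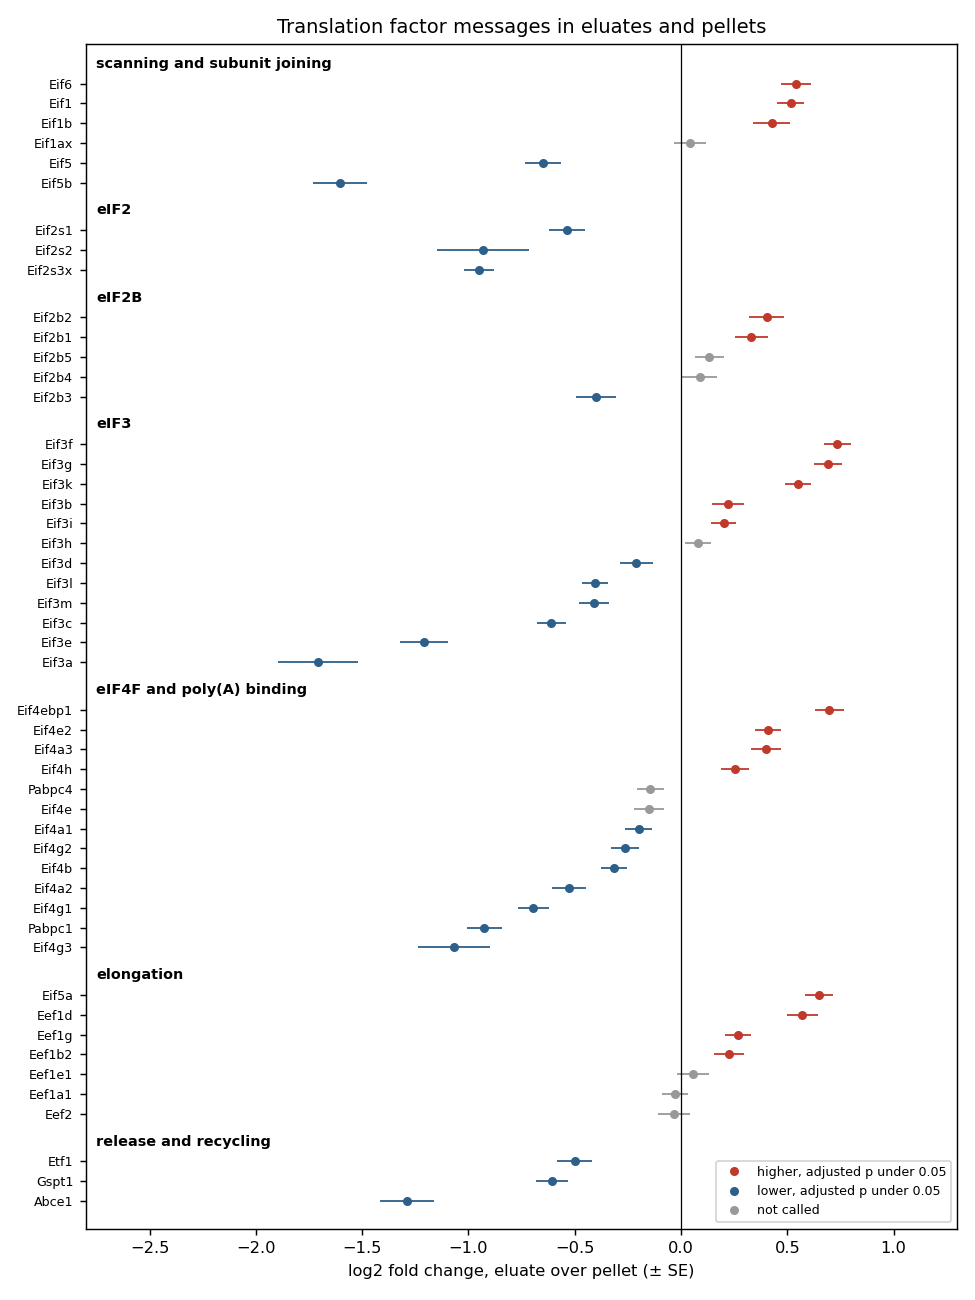
The log2 fold change of each of the 49 genes, eluate over pellet, is drawn with its SE by complex, in red where called higher, blue where called lower and grey where not called (adjusted p threshold 0.05). The eIF2 and release factors lie left of 0 as whole groups, the elongation factors lie at or right of 0, and the eIF3 subunits run from -1.71 to 0.74. The eIF2 and release genes all have less than the list's median GC content of 49.8%, and 54.6% of all genes tested below it were lower. With each library's GC and length trend removed, Eif2s1, Eif5, Etf1 and Eif4g2 lie on the other side of 0.

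Fold changes in these libraries went with the GC content and length of the messages, so a second value is given for each complex. It comes from the same edgeR test after the smooth trend of each library in GC content and transcript length had been taken out, and is called the trend-removed value. It is a log2 fold change relative to messages of like GC content and length. With the trends removed, 19.1% of all genes were higher and 15.9% were lower, and of the list 14 were higher, 21 were lower and 14 were not called.

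Among the 6 scanning and joining factors, Eif6, Eif1 and Eif1b rose, Eif5 and Eif5b fell, and Eif1ax was not called. Eif6, which keeps the large subunit from joining early, was at 317, 315 and 299 CPM in the eluates, against 236, 199 and 205 CPM in the pellets. Eif1, which guards the choice of start codon, was at 1060, 1017 and 1033 CPM in the eluates and 737, 750 and 689 CPM in the pellets. The eluates lay above the pellets for both genes, with no overlap. They rose by 0.54 ± 0.07 (SE; adjusted p = 1.54e-05) and 0.52 ± 0.06 (adjusted p = 6.92e-06) on the log2 scale. Eif1b, a close relative of Eif1, rose by 0.43 ± 0.09 at a lower level of 49.3 ± 0.405 CPM in the eluates and 36.7 ± 2.05 CPM in the pellets (SD, n = 3 each).

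Eif5b, the GTPase that joins the subunits, was at 29.7, 28.9 and 24.2 CPM in the eluates, against 69.0, 98.1 and 85.0 CPM in the pellets. Each pellet held over 2 times the highest eluate, and the message fell by 1.60 ± 0.13 (adjusted p = 7e-07). Eif5, which makes eIF2 hydrolyse its GTP at the start codon, fell by 0.65 ± 0.09 (adjusted p = 1.93e-05). Eif1ax, the eIF1A gene on the X chromosome, was at 232 ± 9.03 CPM in the eluates and 225 ± 22.4 CPM in the pellets, with overlap and no call (log2 fold change 0.04; adjusted p = 0.665). The trend-removed values were -0.70 for Eif5b and 0.30 for Eif1, both still called, and 0.03 for Eif6, 0.01 for Eif1b and 0.09 for Eif5, none of them called. Eif1ax was called at 1.09 with the trends removed.

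The 3 messages of eIF2 fell together. All 3 lie below the list's median GC content of 49.8%, where 54.6% of all genes tested were lower (28.2% at any GC content). Eif2s3x, which encodes the gamma subunit that binds GTP and tRNA, was at 197, 218 and 194 CPM in the eluates, against 365, 412 and 398 CPM in the pellets. Eif2s2, the beta subunit, was at 332, 379 and 319 CPM in the eluates, against 467, 753 and 744 CPM in the pellets. Eif2s1, the alpha subunit whose phosphorylation shuts initiation down under stress, was at 215, 222 and 204 CPM in the eluates, against 265, 341 and 323 CPM in the pellets. The eluates lay below the pellets for all 3 genes, and pellet 1 was the lowest pellet each time.

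Eif2s3x fell by 0.95 ± 0.07 (adjusted p = 1.15e-07), Eif2s2 fell by 0.93 ± 0.21 (adjusted p = 0.0175) and Eif2s1 fell by 0.54 ± 0.08 (adjusted p = 9.16e-05). Summed over the subunits, eIF2 messages were at 299 ± 15.8 TPM (a level per transcript length) in the eluates and 537 ± 51.1 TPM in the pellets. The call for Eif2s2 was lost without pellet 2 (-0.81; adjusted p = 0.0622) and without either number 2 or number 3 (-0.89 and -0.78; adjusted p = 0.0655 and 0.0601). With the trends removed Eif2s3x stayed lower and called at -0.39, Eif2s2 was at -0.28 without a call (adjusted p = 0.0546), and Eif2s1 was higher at 0.27 (adjusted p = 0.000156).

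The 5 subunits of eIF2B, the exchange factor that recharges eIF2, split. Eif2b2, in the regulatory core, was at 87.7, 87.6 and 83.8 CPM in the eluates, against 71.9, 63.5 and 60.5 CPM in the pellets. Eif2b3, in the catalytic part, was at 48.6, 46.3 and 39.0 CPM in the eluates, against 56.0, 61.4 and 59.3 CPM in the pellets. Neither gene overlapped between the groups in CPM, and they moved in opposite directions, by 0.40 ± 0.08 (adjusted p = 0.000641) and -0.40 ± 0.09 (adjusted p = 0.00212). In TPM the groups overlapped for Eif2b2, and it was not called on log2(TPM + 0.1) values (0.29; adjusted p = 0.0554).

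Eif2b1, another regulatory subunit, rose by 0.33 ± 0.08 (adjusted p = 0.00201). Eif2b5, the catalytic subunit with the most TPM of the 5, was at 192, 174 and 183 CPM in the eluates and 175, 160 and 165 CPM in the pellets, with overlap and no call (0.13; adjusted p = 0.117). Without pellet 1 it was called at 0.17 (adjusted p = 0.0226). Eif2b4 was at 64.0 ± 2.74 CPM in the eluates and 60.3 ± 4.33 CPM in the pellets, also without a call. With both libraries of number 3 left out, Eif2b1 (0.26; adjusted p = 0.0743) and Eif2b3 (-0.31; adjusted p = 0.0568) were no longer called. On log2(TPM + 0.1) values Eif2b1 was not called either (0.25; adjusted p = 0.089), nor was Eif2b3 with GC content alone removed (-0.11; adjusted p = 0.305). The trend-removed value was 0.02 for Eif2b2, which was no longer called, and -0.30 for Eif2b4, which then was.

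The subunits of eIF3, the scaffold of the scanning complex, showed the widest range of any complex in the list. Of 12 subunits, 5 rose, 6 fell and 1 was not called, where 24.5% of all genes were higher and 28.2% lower. Eif3f, Eif3g, Eif3k, Eif3b and Eif3i rose, and Eif3a, Eif3e, Eif3c, Eif3m, Eif3l and Eif3d fell. Eif3b, Eif3g and Eif3i encode the mobile arm that reaches the subunit interface, and all 3 rose. Of the 8 subunits of the structural core (a, c, e, f, h, k, l and m), 2 rose, 5 fell and 1 was not called. That grouping was made after the values were seen and was not tested.

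Eif3f was at 525, 499.8 and 500.5 CPM in the eluates, against 321, 302 and 293 CPM in the pellets. Eif3k, the subunit with the highest TPM, was at 519, 492 and 488 CPM in the eluates, against 344, 343 and 337 CPM in the pellets. Eif3a, the largest subunit, was at 96.0, 92.7 and 71.9 CPM in the eluates, against 221, 328 and 303 CPM in the pellets. The eluates were above for Eif3f and Eif3k and below for Eif3a in all 3 libraries, and for Eif3a the lowest pellet held over 2 times the highest eluate.

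Eif3f rose by 0.74 ± 0.06 (adjusted p = 3.23e-07) and Eif3k by 0.55 ± 0.06 (adjusted p = 2.73e-06). Eif3a fell by 1.71 ± 0.19 (adjusted p = 0.000546), which was the largest fall in the list. Eif3g, an RNA-binding subunit, rose by 0.69 ± 0.07, with 383 ± 14.5 CPM in the eluates and 237 ± 13.2 CPM in the pellets. Eif3e fell by 1.21 ± 0.11, with 165 ± 15.7 CPM in the eluates and 383 ± 58.1 CPM in the pellets.

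Smaller falls were those of Eif3c (-0.61), Eif3m (-0.41), Eif3l (-0.40) and Eif3d (-0.21), the last a subunit that can itself bind caps. Eif3b (0.22) and Eif3i (0.20) rose by little, and Eif3h was at 425 ± 14.5 CPM in the eluates and 402 ± 4.51 CPM in the pellets without a call (adjusted p = 0.279). The calls of Eif3b, Eif3d and Eif3i did not survive leaving out samples. Eif3b was at 0.17 to 0.21 (adjusted p = 0.0756 to 0.126) without eluate 1, eluate 2, pellet 2 or pellet 3. Eif3d was at -0.23, -0.14 and -0.22 (adjusted p = 0.0616, 0.174 and 0.0588) without eluate 2, eluate 3 and pellet 3. Eif3i lost its call without both libraries of number 2 (adjusted p = 0.0873) or of number 3 (adjusted p = 0.0842). On log2(TPM + 0.1) values, where the groups overlapped for both genes, Eif3b was at 0.11 (adjusted p = 0.469) and Eif3i at 0.09 (adjusted p = 0.329). Eif3d was at -0.12 (adjusted p = 0.204) with upper quartile factors.

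In TPM, the subunit messages lay further apart in the eluates. The SD of log2 TPM over the 12 subunits was 1.40, 1.40 and 1.49 in the eluates, against 0.97, 0.94 and 0.93 in the pellets. This was not particular to eIF3. The mean SD was 2.26 in the eluates and 1.99 in the pellets over the whole list, and 2.62 and 1.98 over the scanning and joining factors. It was also wider in the eluates for eIF2B, the eIF4F group and release, but not for eIF2 (0.75 and 0.82) or elongation (2.06 and 2.08). The most abundant subunit, Eif3k, held 41.8, 41.9 and 53.7 times the TPM of the least abundant, Eif3a, in the eluates, and 12.5, 8.78 and 9.09 times in the pellets. The sum over the subunits was 2951 ± 105 TPM in the eluates and 2922 ± 193 TPM in the pellets, a difference smaller than the spread between pellets.

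**Figure D2:**
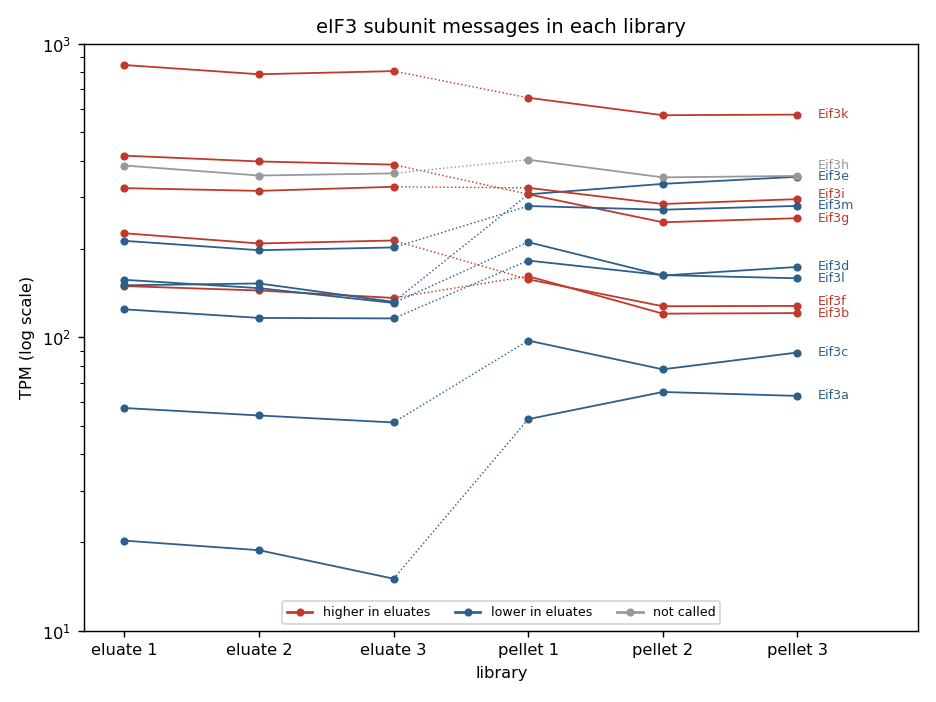
The TPM of each eIF3 subunit is plotted on a log axis in each eluate and each pellet, with lines that link the points of 1 gene and colours for the call. Eif3a lies between 15.0 and 20.3 TPM in the eluates and between 52.6 and 65.2 TPM in the pellets. Eif3k lies at the top in all 6 libraries. Eif3b and Eif3i, drawn as higher, fall below 0 with the GC and length trend removed.

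The letters of the messages show the difference in composition that runs through the list. The middle 60 coding bases of Eif3g and of Eif3e, subunits of 1 complex that moved in opposite directions, are printed here from the GENCODE mouse release 21 transcript with the most counts. Bases are counted from the A of the start codon, and capitals mark G or C as the last base of a codon. The choice of these genes was made after their values were seen.
Eif3g coding bases 451 to 510: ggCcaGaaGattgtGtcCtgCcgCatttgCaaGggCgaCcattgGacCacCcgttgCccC
Eif3e coding bases 640 to 699: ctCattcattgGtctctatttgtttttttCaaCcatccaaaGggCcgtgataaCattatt
In these windows 16 of 20 codons of Eif3g end in G or C, and 7 of 20 codons of Eif3e. Over the whole coding sequence the share is 69.5% in Eif3g and 43.0% in Eif3e, and the GC content of the transcript is 55.8% and 40.3%. The pair does not stand for every subunit. Eif3d and Eif3l have a higher share than Eif3g, 71.6% and 71.9%, and fell, while Eif3k has 76.3% and rose. With the trends removed Eif3g stayed higher and called at 0.19, and Eif3e stayed lower and called at -0.59.

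Trend removal left 2 eIF3 subunits higher and 8 lower. Eif3f (0.78) and Eif3g remained called as higher. Eif3a (-1.03), Eif3c (-0.49), Eif3d (-0.51), Eif3e, Eif3l (-0.54) and Eif3m (-0.16) remained called as lower, and Eif3h and Eif3i joined them, each at -0.16 (adjusted p = 0.0134 and 0.0145). Eif3k (0.12; adjusted p = 0.0657) and Eif3b (-0.03; adjusted p = 0.717) were not called. With GC content alone removed, Eif3m was at 0.13 without a call (adjusted p = 0.0701).

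Among the cap, helicase and poly(A) binding factors, the scaffold genes Eif4g1, Eif4g2 and Eif4g3 and the poly(A) binding gene Pabpc1 fell. Pabpc4 was not called, Eif4ebp1 rose, and Eif4g2 was higher with the GC and length trends removed. Of 13 genes, 4 rose, 7 fell and 2 were not called, where 24.5% of all genes were higher and 28.2% lower. Eif4ebp1, a repressor that takes eIF4E away from eIF4G until mTOR phosphorylates it, was at 722, 738 and 762 CPM in the eluates, against 493, 444 and 434 CPM in the pellets. The eluates lay above the pellets, and the message rose by 0.70 ± 0.07 (adjusted p = 7.4e-07). Eif4e, the cap-binding protein it holds, was at 234 ± 2.60 CPM in the eluates and 260 ± 21.1 CPM in the pellets, without a call (-0.15; adjusted p = 0.0775). Without pellet 1 Eif4e was called at -0.22 (adjusted p = 0.0016). Eif4e2, a cap-binding relative that represses translation, rose by 0.41 ± 0.06 (adjusted p = 4.09e-05).

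The helicase genes diverged. Eif4a1, the main helicase of eIF4F and the gene of this group with the highest TPM, was at 1935, 1924 and 1804 CPM in the eluates, against 2098, 2262 and 2137 CPM in the pellets. The groups did not overlap, and the fall was small, by 0.20 ± 0.06 (adjusted p = 0.0157). It was not called without eluate 2, eluate 3 or pellet 2 (adjusted p = 0.0552, 0.0865 and 0.0565), nor with upper quartile factors in place of TMM (-0.11; adjusted p = 0.148). Eif4a2, its close relative, fell by 0.53 ± 0.08 (adjusted p = 5.97e-05). Eif4a3, a helicase of the exon junction complex, rose by 0.40 ± 0.07 (adjusted p = 0.000177). The helper proteins also differed in sign, with Eif4b at -0.32 ± 0.06 and Eif4h at 0.25 ± 0.07. Eif4h lost its call without both libraries of number 3 (0.20; adjusted p = 0.118) and on log2(TPM + 0.1) values (0.15; adjusted p = 0.242), where its groups overlapped.

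The 3 scaffold genes fell. Eif4g3 was at 5.14, 5.46 and 6.61 CPM in the eluates, against 13.4, 11.8 and 10.7 CPM in the pellets. It is the least abundant gene of the list, its groups did not overlap, and it fell by 1.07 ± 0.17 (adjusted p = 7.32e-05). Eif4g1, the main scaffold that ties the cap-binding protein to the helicase and eIF3, fell by 0.69 ± 0.07 (adjusted p = 1.66e-06), with 231 ± 14.1 CPM in the eluates and 374 ± 30.1 CPM in the pellets. Eif4g2, which lacks the eIF4E-binding region and serves initiation without the cap-binding protein, fell by 0.26 ± 0.07 (adjusted p = 0.00285) at a far higher level of 1351 ± 57.4 CPM in the eluates and 1623 ± 73.2 CPM in the pellets. Its call was lost without both libraries of number 2 (-0.24; adjusted p = 0.0549).

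Pabpc1, the main cytoplasmic poly(A) binding protein, was at 1207, 1320 and 1265 CPM in the eluates, against 2073, 2583 and 2544 CPM in the pellets. It fell by 0.93 ± 0.08 (adjusted p = 4.73e-07), with no overlap between the groups. Pabpc4, a second cytoplasmic form, was at 243 ± 3.67 CPM in the eluates and 269 ± 8.29 CPM in the pellets and was not called (-0.14; adjusted p = 0.0609). The group's summed level was 3882 ± 34.6 TPM in the eluates and 4681 ± 191 TPM in the pellets.

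With the trends removed, Eif4ebp1 (0.79), Eif4e2 (0.14), Eif4g1 (-0.65), Eif4g3 (-0.87), Pabpc1 (-0.71), Eif4b (-0.19) and Eif4a1 (-0.14) kept their direction and call. Eif4g2 turned to 0.49 (adjusted p = 9.42e-08), and Eif4e was called at 0.60 (adjusted p = 2.18e-09). Eif4a2 (-0.01), Eif4a3 (0.04) and Eif4h (0.01) were no longer called, and Pabpc4 was called as lower at -0.29. With GC content alone removed, Eif4a1 was at 0.02 (adjusted p = 0.782) and Eif4a2 at 0.14 (adjusted p = 0.0472).

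Related factors were also set against each other within each library. For 8 pairs the log2 ratio of the TPM values of the pair was taken in each library and compared between the groups by a two-sided exact permutation test, which cannot give less than p = 0.1 with 3 libraries a side. The log2 ratio of Pabpc1 to Pabpc4 was 2.51, 2.66 and 2.61 in the eluates, against 3.11, 3.47 and 3.42 in the pellets, a difference of -0.74. The ratio of Eif4a1 to Eif4a3 differed by -0.56, with 2.50 ± 0.06 in the eluates and 3.06 ± 0.08 in the pellets. The ratio of Eif4e to Eif4e2 differed by -0.53, with -0.97 ± 0.07 in the eluates and -0.44 ± 0.08 in the pellets.

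The ratio of Eif4g1 to Eif4g2 differed by -0.51, that of Eef1b2 to Eef1d by -0.35 and that of Eif4a1 to Eif4a2 by 0.30. In these 6 pairs the groups did not overlap, which gives the smallest p the exact permutation test allows (p = 0.1; adjusted p = 0.133 over the 8 pairs). Eif1 to Eif1b (0.10) and Eif4g1 to Eif4g3 (0.28) overlapped between the groups (p = 0.2, exact permutation test). The Eif4g1 to Eif4g3 difference was -0.11 with a pseudocount of 1 TPM in place of 0.1.

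**Figure D3:**
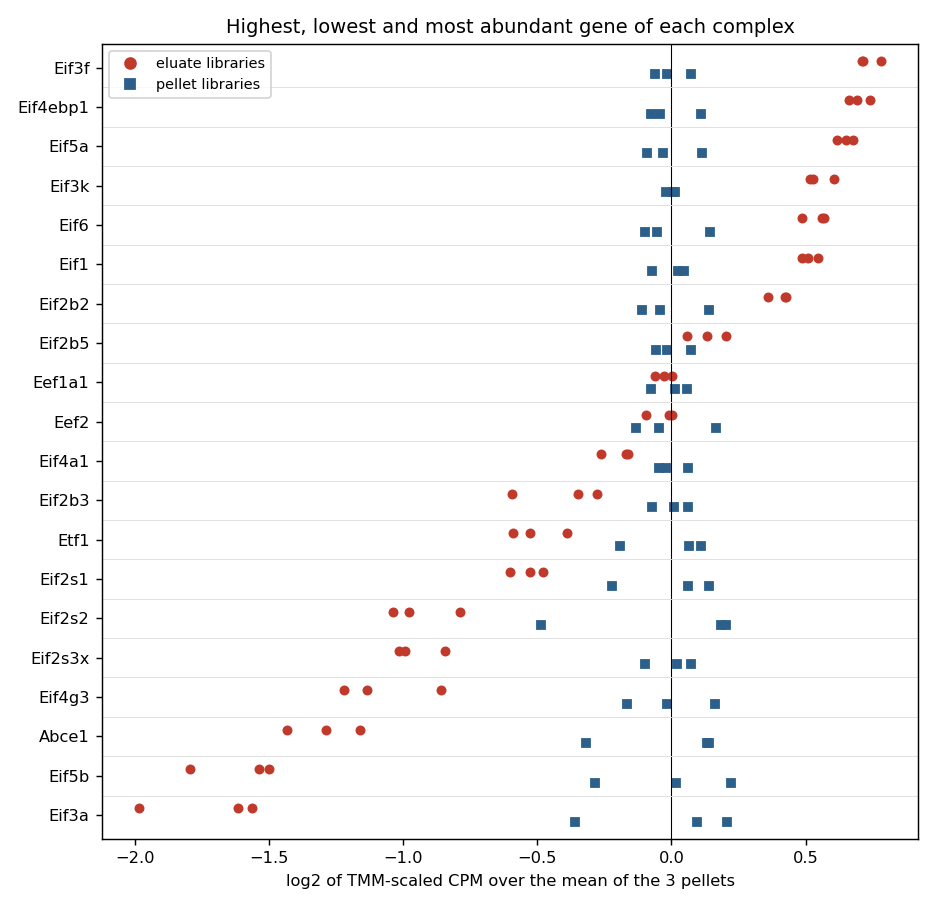
Each point is the TMM-scaled CPM of a gene in 1 library on a log2 scale, relative to the mean of the 3 pellets, with eluates as circles above and pellets as squares below on each line, for the highest, the lowest and the most abundant gene of each complex. Eluates lie right of the pellets from Eif3f to Eif2b2 and left of them from Eif4a1 to Eif3a, and the groups overlap for Eif2b5, Eef1a1 and Eef2. Eif2s1 and Etf1 are on the other side of 0 with the GC and length trend removed.

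Of the 7 elongation factor genes, 4 rose, none was called as lower and 3 were not called, so 57.1% were higher, where 24.5% of all genes and 54.5% of the 479 genes at or above the list's median CPM were. Eif5a, which carries the modified lysine hypusine and eases the ribosome through stretches of proline, was at 3148, 3228 and 3285 CPM in the eluates, against 2221, 2012 and 1930 CPM in the pellets. It rose by 0.65 ± 0.07 (adjusted p = 1.46e-06) with no overlap. Eef1a1, which brings aminoacyl-tRNA and is the most abundant message of the list, was at 12972, 12724 and 12427 CPM in the eluates and 12294, 13514 and 13096 CPM in the pellets. Eef2, the translocase, was at 2564, 2398 and 2547 CPM in the eluates and 2871, 2335 and 2479 CPM in the pellets. Both overlapped between the groups, and neither was called (-0.03 each; adjusted p = 0.717 and 0.737).

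Messages for subunits of the exchange complex that reloads eEF1A with GTP rose. Eef1d rose by 0.57 ± 0.07 (adjusted p = 1.14e-05), Eef1g by 0.27 ± 0.06 (adjusted p = 0.00171) and Eef1b2 by 0.23 ± 0.07 (adjusted p = 0.0125). Eef1b2 lost its call without eluate 1, eluate 2 or pellet 3 (0.23, 0.22 and 0.21; adjusted p = 0.051, 0.0585 and 0.0589) and on log2(TPM + 1) values (0.08; adjusted p = 0.337). Eef1g was also not called on log2(TPM + 1) values (0.17; adjusted p = 0.101). Eef1e1, a scaffold protein of the tRNA synthetase complex, was at 202 ± 3.57 CPM in the eluates and 194 ± 19.9 CPM in the pellets, without a call.

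The summed level of the elongation factors was 14783 ± 277 TPM in the eluates and 14248 ± 777 TPM in the pellets. With the trends removed Eif5a (0.22), Eef1d (0.26) and Eef1b2 (0.30) kept their calls, Eef1g was at 0.09 without one, Eef1e1 was called as higher at 0.54 and Eef2 was called as lower at -0.32. Eef1a1 was at 0.08 without a call, and at 0.25 (adjusted p = 0.00337) with GC content alone removed.

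The 3 messages for release and recycling fell. Their GC content is also below the list's median of 49.8%, and 54.6% of all genes tested below it were lower (28.2% at any GC content). Abce1, the ATPase that splits ribosomes after termination, was at 119, 129 and 107 CPM in the eluates, against 232, 317 and 319 CPM in the pellets. Etf1, which encodes eRF1, the protein that reads stop codons, was at 402, 462 and 420 CPM in the eluates, against 530, 632 and 652 CPM in the pellets. Gspt1, its GTPase partner eRF3a, was at 148 ± 11 CPM in the eluates and 225 ± 15.3 CPM in the pellets. The eluates lay below the pellets for all 3.

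Abce1 fell by 1.29 ± 0.13 (adjusted p = 3.69e-05), Gspt1 by 0.61 ± 0.08 (adjusted p = 7.63e-06) and Etf1 by 0.50 ± 0.08 (adjusted p = 0.000124). Their summed level was 223 ± 8.26 TPM in the eluates and 364 ± 14.3 TPM in the pellets. Abce1 (-0.40) and Gspt1 (-0.24) stayed lower and called with the trends removed, and Etf1 was at 0.06 without a call (adjusted p = 0.448).

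The genes of the list were not chosen for base composition, yet their changes ran with it. Spearman's rho of the log2 fold change with GC content was 0.60 over the 49 genes and 0.72 over 12220 nuclear protein-coding genes tested. With coding length it was -0.64 over the list and -0.42 over the coding genes, and with the share of codons that end in G or C 0.65 and 0.64. With the length of the whole transcript it was -0.65 and -0.48, and with the length after the coding sequence -0.33 and -0.31. These values are descriptions across genes that share the same 6 libraries, and genes are not independent replicates. Over the whole list GC content and coding length were unrelated in rank (rho 0.01). Below, the list is split at its median GC content, and GC content still varied within each part (39.7% to 49.8% in the lower part). The part of coding length apart from GC content and transcript length was not tested.

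Of the 24 genes below the list's median GC content of 49.8%, 3 rose, 17 fell and 4 were not called, with a median log2 fold change of -0.51. Among all 5940 genes tested below that GC content, 5.86% were higher and 54.6% were lower. Of the 25 listed genes at or above it, 15 rose, 5 fell and 5 were not called, with a median of 0.25. Among all 7291 genes tested at or above it, 39.7% were higher and 6.73% were lower. Within the low-GC genes the log2 fold change ran with coding length at a rho of -0.72, within the others at -0.77, and over all 4970 coding genes in the GC range of the low-GC genes at -0.66. Eif1ax, with the lowest GC content of the list (39.7%) and a coding length of 435 bases, was at 0.04. Eif3e, at 40.3% and 1338 bases, was at -1.21. Eif4g2, at 43.3% and 2607 bases, was at -0.26, and without it the rho within the low-GC genes was -0.77.

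The middle 60 coding bases of Eif1ax, shown because its composition resembles that of Eif3e while its message was not called, run as follows, with capitals again for G or C at the end of a codon.
Eif1ax coding bases 187 to 246: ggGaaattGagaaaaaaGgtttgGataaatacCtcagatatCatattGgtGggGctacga
In this window 9 of 20 codons end in G or C, and 38.6% do over the whole coding sequence, against 43.0% in Eif3e. Eif1ax was chosen after its values were seen.

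**Figure D4:**
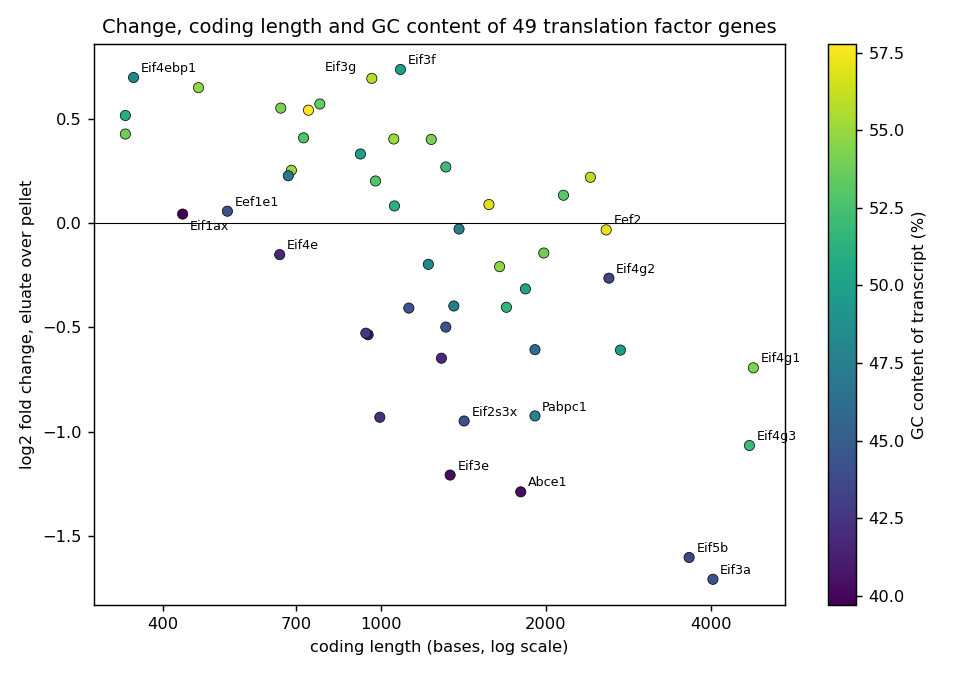
Each point is 1 of the 49 genes, with its coding length in bases on a log axis, its log2 fold change, eluate over pellet, on the vertical axis and the GC content of its transcript as colour. Eif4ebp1, with 354 coding bases, lies at 0.70, and Eif2s2, with 996 coding bases and 42.1% GC, lies at -0.93. Eif5b and Eif3a, with 3651 and 4035 coding bases, lie lowest.

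Setting both values of each gene side by side separates the list further. Of the 40 called genes, 34 kept their direction and 25 their call after the GC and length trends had been removed. Eif1ax (1.09), Eif4e (0.60) and Eef1e1 (0.54) had not been called and were called as higher after removal. Their coding lengths are 435, 654 and 525 bases, and their transcript lengths 5172, 3748 and 2553 bases. The removed trend was in transcript length and not in coding length, and the part of coding length in these values was not tested. Eif4g2 (0.49) and Eif2s1 (0.27) had been called as lower and were then called as higher. Eif3f and Eif4ebp1 were at nearly the same value before and after, at 0.74 and 0.78 for Eif3f and at 0.70 and 0.79 for Eif4ebp1. Eif3a, Eif5b, Eif4g3, Pabpc1, Eif4g1 and Eif3e were the lowest called genes after removal, from -1.03 to -0.59.

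**Figure D5:**
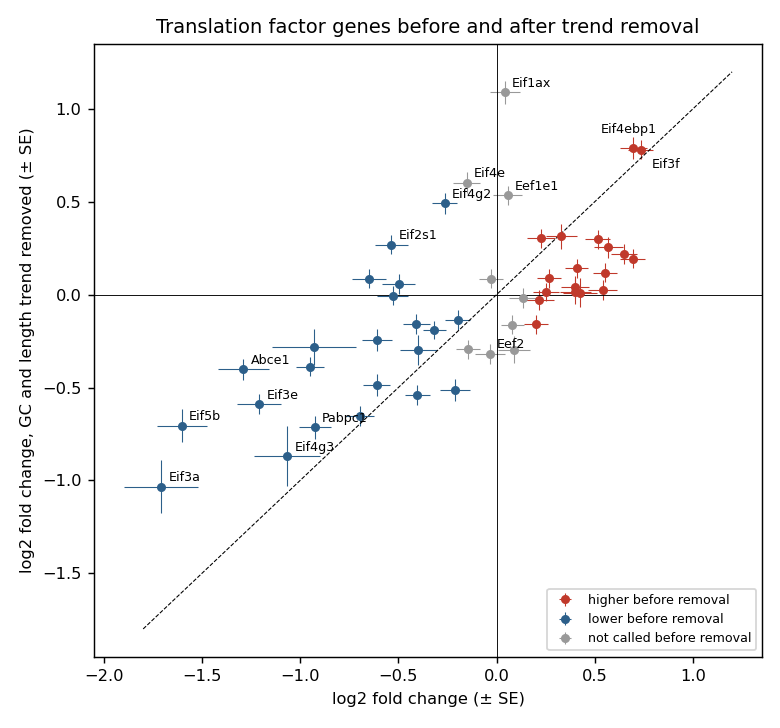
The log2 fold change of each listed gene is plotted against its value after removal of the GC and length trend, with SE bars on both and the dashed diagonal where both are equal. Eif1ax is at 0.04 before and 1.09 after removal, Eif4g2 at -0.26 before and 0.49 after, and Eif3a is lowest both times, at -1.71 and -1.03.

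Start sites were read from RefSeq promoter entries on GRCm38.p6, which cover 38 of the 49 genes with 47 entries. They were searched on the strand of the gene for a start at C followed without a break by C or T, for at least 5 letters in all, the form of a TOP tract. The form was found in 2 of the 47 entries, and in 823 of all 32851 entries (2.51%). Both matches are printed with the run in capitals, from 5 bases before the start to 15 from it, because the genes that carry them moved in opposite directions.
Eif3f, chr7:108934410-108934429, plus strand: gctctCTCTCTTTCTCggca
Eif2s3x, chrX:94212637-94212656, minus strand: ttttcCTTTTCTCTCCgagc
Each run is 11 bases long. Eif3f rose by 0.74 and Eif2s3x fell by 0.95, so a pyrimidine run of that length stood at the annotated start of a message that rose and of a message that fell. For Eef1a1 a run of 5 pyrimidines began at the annotated start, but with T in place of C, so it was not counted. The listed genes without an entry include Pabpc1, Eef1d, Eef1g, Eif3e and Eif3h, which could not be searched. The annotated start may differ from the start used in these cells, so the number of TOP messages in the list is not known from this search.

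The files hold values per transcript, and 109 transcripts of the list were matched, all annotated as protein_coding. A single transcript stood for 29 of the genes. In genes with more than 1 transcript, 44 forms had a mean share over 5%. Of these, 12 forms in 8 genes did not overlap between the groups. The share of such forms over all genes was not taken, and the shares of the forms of a gene are tied to each other. The widest difference was that of the 1966-base form of Eif2b4, which held 34.1%, 35.6% and 40.3% of the gene's counts in the eluates, against 14.9%, 18.7% and 27.3% in the pellets. The 1878-base form of Eif2b4, with the same coding length, held 0%, 21.6% and 6.48% in the eluates and 22.1%, 16.5% and 4.77% in the pellets. The division of counts between these forms was thus not stable across libraries, and the difference is uncertain. For Eif5 the 3547-base form held 0%, 10.47% and 7.33% of the gene's counts in the eluates, against 20.1%, 26.2% and 15.3% in the pellets. For Eif4e2 the 3394-base form held 15.8%, 15.2% and 17% in the eluates, against 19.6%, 21.8% and 21.3% in the pellets. For Gspt1 the 2898-base form held 76.4% ± 2.14 in the eluates and 71.6% ± 1.76 in the pellets (SD, n = 3 each). For Eif4g3 the counts jumped between near-identical forms, and the 6139-base form held 0%, 97.4% and 0% in the eluates and 0%, 0% and 97.0% in the pellets, so no isoform is described for it. These shares were not tested and were named after their values were seen.

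Some listed genes have processed copies elsewhere in the genome, which makes their estimated counts uncertain. The share of 31-base stretches that also occur in another gene's transcripts was 84.9% for Pabpc4, 72.3% for Eef1a1, 68.1% for Eef1g, 67.6% for Eif4a1 and 53.7% for Eif3m. The copy that shares most with each of them held far fewer counts, for example 44.7 counts per library for the Pabpc4 copy against 2474 for Pabpc4 itself. These counts are themselves estimates that divide the shared reads, so they cannot show that the division is right. Eif3e (42.0%) and Eif1 (37.15%) also share stretches with other genes. The gene sharing most with Eif1 is Emd, which held 1036 counts per library against 8759 for Eif1.

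Regulators around the listed factors were described from a second list of 42 cytosolic genes, all tested. Of them 9 rose, 18 fell and 15 were not called, where 24.5% of all genes were higher and 28.2% lower. Their median log2 fold change was -0.14. The balance turned with the GC and length trends removed, to 14 higher and 5 lower, where 19.1% of all genes were higher and 15.9% lower. Dohh, which completes hypusine on eIF5A, had the largest rise at 0.68 ± 0.08 (adjusted p = 5.14e-06), with 177 ± 2.08 TPM in the eluates and 124 ± 20.04 TPM in the pellets. Dhps, the enzyme before it, named after its value was seen, rose by 0.45 ± 0.09. Eif5a2, a second eIF5A gene in the same list, went the other way, by -0.87 ± 0.14 (adjusted p = 6.72e-05). Its level was low, at 2.38 ± 0.06 TPM in the eluates and 4.33 ± 0.15 TPM in the pellets. Pabpc4l, a little-expressed poly(A) binding relative, had the largest fall at -1.37 ± 0.36 (adjusted p = 0.005), with 0.235 ± 0.076 TPM in the eluates and 0.603 ± 0.105 TPM in the pellets.

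Both genes of the loosely bound eIF3 subunit j were lower, Eif3j1 at -0.50 (adjusted p = 0.0027) and Eif3j2 at -0.40 (adjusted p = 0.0172). With the trends removed Dohh was at 0.02 and Pabpc4l at -0.06, neither of them called. Leaving out both libraries of number 2 or of number 3 lowered the 18 falls to 9 and to 8. Of 10 mitochondrial translation factors 3 rose, 4 fell and 3 were not called, against the same shares of all genes (24.5% higher and 28.2% lower). They ran from Tsfm at 0.49 ± 0.09, an elongation factor, to Mtif2 at -1.20 ± 0.13, an initiation factor.

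The authors' deposited table of the comparison, which holds 4892 genes with an adjusted p under 0.05, lists 38 of the 49 genes, with 16 higher and 22 lower. All 38 were called here in the same direction. Eif3i and Eef1b2 were called here and are not in the authors' deposited table. The largest gap was for Eif4g3, at -0.68 in the authors' deposited table and -1.07 in the values above. For that gene the mean normalized count in the authors' deposited table is 127, which is 1.53 times the mean estimated count used here.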

How the data were processed

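Salmon output per transcript was used for 3 eluate and 3 pellet libraries. The build was GRCm39 and the tools were Salmon 1.10.3, STAR 2.7.11b, cutadapt 4.7 and DESeq2 1.44.0, per the submitters' processing notes, which give neither roles nor settings. The deposited files hold an estimated count and TPM for each transcript, per the file headers. Per the file headers, the authors' deposited comparison gives a mean normalized count (a signal), a log2 fold change with SE, a test statistic (a score), and raw and adjusted p-values.

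Names, GC content and lengths came from GENCODE mouse release 21, in which 76858 of 84226 transcripts had an entry with the same identifier. The rest held 1.63% to 2.35% of a library's counts and were left out. Estimated counts were summed per gene, rounded and tested with edgeR 4.0.16 in R 4.3.3 (robust quasi-likelihood fit, TMM factors, default count filter, Benjamini-Hochberg adjustment over 13231 genes, threshold 0.05). GC content is the count-weighted mean over a gene's transcripts, and coding length is that of the transcript with the most counts. Trends were splines with 5 degrees of freedom in GC content and log2 length, fitted per library. TPM was summed per gene and paralog pairs used log2(TPM + 0.1). The test was checked on simulated counts.

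The listed genes and the other lists were chosen with earlier results of these data known. In each complex the highest and lowest log2 fold change and the highest mean TPM were given per library. In the other lists the highest and lowest called gene was named. Alternatives were other scaling factors, filters, tests (DESeq2 1.42.0, limma 3.58.1), TPM, an effective length offset, protein_coding transcripts, a replicate block, trend removal and leaving out libraries. Library totals were 7.84e+06 to 1.16e+07 estimated counts. No genome of the files' build was used, so coordinates come from GRCm38.p6 alone. Further tools were Python 3.11.15, pandas 2.3.3, numpy 2.4.6, scipy 1.17.1 and matplotlib 3.10.9.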

Additional observations from a re-analysis of the deposited data

How the results depend on the processing

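Of the 40 called genes of the list, 19 kept direction and call in all 24 alternatives, and all 40 kept their direction in the alternatives outside trend removal. The alternatives RLE factors, DESeq2, limma voom, no count filter, the CPM filter, protein_coding transcripts and scaling without mitochondrially encoded genes left all 40 calls in place. On log2(TPM + 0.1) and on log2(TPM + 1), 11 listed genes were called as higher, and all genes called as higher were 1949 and 1960. In both, 1 mitochondrial factor was higher. Upper quartile factors gave 14 higher cytosolic regulators.

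With GC content and length removed, GC content and length removed with the replicate block, and GC content alone removed, all genes called as lower were 2103, 2089 and 2487. Cytosolic regulators were then 14, 14 and 16 higher and 5, 5 and 7 lower, and mitochondrial factors 1 higher in the first 2. In the same order, values that changed sign were 0.0869, 0.0865 and 0.0973 for Eif5, 0.27, 0.27 and 0.29 for Eif2s1, -0.30, -0.30 and -0.23 for Eif2b4, -0.0287, -0.0288 and -0.0598 for Eif3b, 0.60, 0.60 and 0.59 for Eif4e, 0.49, 0.49 and 0.36 for Eif4g2, and 0.0562, 0.056 and 0.0461 for Etf1. In the first 2, Eif3h was at -0.16 and -0.16 and Eif3i at -0.16 and -0.16. With GC content alone removed, Eif3m was at 0.13, Eif4a1 at 0.0249, Eif4a2 at 0.14 and Eef1a1 at 0.25. The Eif4g1 to Eif4g3 difference was -0.11 with a pseudocount of 1. The cause of these changes was not tested.

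With libraries or numbers left out, listed genes called as higher ranged from 13 to 19 and as lower from 18 to 23. All genes ranged from 1949 to 3722 higher and 2662 to 4039 lower. Cytosolic regulators ranged from 8 to 12 higher and 8 to 19 lower, and mitochondrial factors from 1 to 3 higher. Calls were lost in at least 1 of these settings for 10 listed genes.

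Deviations of same-numbered libraries from their group means correlated at 0.0698, 0.151 and -0.0102, so the numbers were not taken as pairs. The replicate block called 18 listed genes higher and 23 lower. It kept the 40 calls and added Pabpc4 (-0.14; adjusted p = 0.0496). For the paralog pairs the exact sign-flip test with the replicate block cannot give less than p = 0.25.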
